A study of Homo sapiens and Mus musculus with 92 samples.

Results

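Interferon-stimulated genes were followed in HEL cells after knockdown (KD) of MLL1 or AF9. The 39 members were taken from a fixed list of gene symbols and are interferon targets together with the STAT and IRF factors that act on them. All 39 symbols were listed in both RNA-seq count tables, each of which held 28103 symbols. HEL is an established human erythroleukemic cell line without an MLL rearrangement, and the study used it to ask which genes depend on MLL1 (gene symbol KMT2A), a histone methyltransferase, or on AF9 (gene symbol MLLT3), a reader of acylated histones. The MLL1 experiment had 3 control (Ctrl) libraries and 3 libraries of cells with MLL1 shRNA #1, and the AF9 experiment had 2 Ctrl libraries and 2 libraries of cells with AF9 shRNA #1. Each experiment had its own controls. Per the methods of the study, the hairpins were delivered with lentivirus made in packaging cells, and the control cells received a control hairpin of the same vector series, whereas the labels call the control genotype wild type. A response that the control hairpin raised as well as the targeting hairpin would therefore not show in KD against Ctrl. The RNA-seq libraries of each KD came from a single hairpin, the transduced populations were not clones, and no library of untransduced cells was analysed here. No label states that replicates were separate cultures, so p-values measure only the spread between these libraries.

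Type I interferons bind a receptor made of IFNAR1 and IFNAR2, and the kinases JAK1 and TYK2 then activate STAT factors. STAT2 joins IRF9 in a complex called ISGF3 that binds interferon-stimulated response elements upstream of the target genes. Many targets are also kept at a basal level without interferon. Double-stranded RNA is a trigger of this pathway, through sensors such as IFIH1 and EIF2AK2, and for that reason the same genes serve as a check for a response to a hairpin.

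The response element was searched as letters in the promoters of the members. The windows ran from 250 bases upstream to 50 bases downstream of each annotated start in RefSeq (GRCh38.p14). At least 1 window was available for 31 of the 39 members. The letters GAAANNGAAA, on either strand, were found for 21 of these 31 members (67.7%) and in 3.57% of 35116 windows of all genes, or for 4.38% of 27305 genes. The shorter spacing GAAANGAAA was found for 10 members and for 3.87% of all genes (3.12% of all windows). Counting either spacing, 25 of the 31 members (80.6%) and 7.83% of all genes (6.40% of all windows) held a match. The palindrome TTCNNNGAA, which is bound by STAT dimers, was found for 8 of the 31 members and for 9.38% of all genes (7.66% of all windows). A match describes letters only and is not a site shown to be bound. The 250 upstream bases of the windows are shown first for the 3 members with the most to report below. Each match to either spacing is in capitals, and overlapping matches are 1 run of capitals.
IFI16 (chr1:159009657-159009906, plus strand): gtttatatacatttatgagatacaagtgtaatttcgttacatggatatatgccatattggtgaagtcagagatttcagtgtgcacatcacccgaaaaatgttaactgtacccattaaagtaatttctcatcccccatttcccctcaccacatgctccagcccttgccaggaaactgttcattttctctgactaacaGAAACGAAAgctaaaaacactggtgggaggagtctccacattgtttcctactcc
IFI44 (chr1:78649581-78649830, plus strand): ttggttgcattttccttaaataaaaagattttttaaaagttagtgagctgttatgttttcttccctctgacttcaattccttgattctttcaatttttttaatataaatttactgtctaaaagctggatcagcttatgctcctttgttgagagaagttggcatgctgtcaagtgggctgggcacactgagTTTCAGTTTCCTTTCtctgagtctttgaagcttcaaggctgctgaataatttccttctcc
OAS1 (chr12:112906712-112906961, plus strand): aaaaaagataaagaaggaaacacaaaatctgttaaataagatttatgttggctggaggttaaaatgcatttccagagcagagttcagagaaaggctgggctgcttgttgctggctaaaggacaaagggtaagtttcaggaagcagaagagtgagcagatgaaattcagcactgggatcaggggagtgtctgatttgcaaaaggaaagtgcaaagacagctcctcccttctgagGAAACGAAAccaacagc

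In IFI16 the match began 54 bases upstream of the start and had the shorter spacing, in OAS1 it began 17 bases upstream and also had the shorter spacing, and IFI44 had 2 overlapping matches. IFI44 had 1 match of each spacing. Both IFI16 and IFI44 had a further annotated start, and the window of the other IFI16 start held 0 matches. For comparison, 40 bases around the upstream GAAANNGAAA match nearest to a start are shown for other members. These members cover antiviral effectors that interferon is best known to raise.
ISG15 (chr1:1013375-1013414, plus strand): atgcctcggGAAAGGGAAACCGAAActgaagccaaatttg
IFIT1 (chr10:89392505-89392544, plus strand): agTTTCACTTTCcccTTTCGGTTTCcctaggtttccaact
RSAD2 (chr2:6877617-6877656, plus strand): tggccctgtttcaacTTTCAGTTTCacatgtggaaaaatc
BST2 (chr19:17405730-17405769, minus strand): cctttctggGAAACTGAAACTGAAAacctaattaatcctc
OAS3 (chr12:112938447-112938486, plus strand): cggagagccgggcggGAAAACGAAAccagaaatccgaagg
IFI44L (chr1:78620360-78620399, plus strand): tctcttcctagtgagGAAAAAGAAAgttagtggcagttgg

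The hairpins were matched to the genome as well, since a member with the target sequence could be silenced directly. Each 21-base target had a single exact match in hg38, in a coding exon of the intended gene, exon 3 of KMT2A and exon 5 of MLLT3. The MLL1 target also lay in transcripts of another gene model beside KMT2A. Either sequence was held by 0 of the 39 members. Only exact matches were searched, so silencing of members through partial matches was not tested.
MLL1 shRNA #1 (chr11:118474149-118474169, plus strand): gcactgttaaacattccactt
AF9 shRNA #1 (chr9:20414247-20414267, minus strand): ttcaaagcctcacaaattaat

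The libraries held between 6966345 and 14232408 counts and between 16415 and 17325 genes with at least 1 count. Levels are given as CPM (a gene's counts as a share of its library, with library sizes scaled by TMM factors) when a gene is compared between libraries, and as TPM (the same kind of share after division by exon length) when genes are compared with each other. A gene was tested where its mean TPM over the libraries of an experiment was at least 1, and it was called where the fold change was at least 1.5 and the adjusted p was under 0.05 in edgeR's quasi-likelihood test, adjusted over all genes tested. MLLT3 mRNA was 5.38-fold lower in AF9 KD (adjusted p = 3.08e-08). KMT2A mRNA was 1.58-fold lower in MLL1 KD, with an adjusted p of 0.0726, and of 2.1e-07 when the replicate number was included as a block. Summed TPM over 10 erythroid and megakaryocytic markers ran from 5206 to 5734 in Ctrl and from 4625 to 4776 in MLL1 KD, and from 36408 to 36641 in Ctrl and 25101 to 29169 in AF9 KD. In the AF9 experiment most of that sum was fetal globin, HBG1 (mean 9036 TPM in Ctrl and 6397 in KD) and HBG2 (24534 and 17382 TPM), while GATA1, KLF1, NFE2, ITGA2B and GP9 had higher means in KD, for example 542 and 704 TPM for GATA1. Of 8 genes of other blood cells, CD3D, MS4A1, CD14 and ELANE had at most 3 counts in every library and CD3E at most 4, whereas LYZ had 112 to 1278 counts, CD79A 18 to 61 and NKG7 6 to 22. Of 5 genes of the packaging cells, CDH2 and NEFL had at most 3 counts and NEFM at most 9, whereas KRT8 had 57 to 404 and KRT18 361 to 509. Their part in the results was not tested.

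Control HEL cells, which per the study's methods carried a control hairpin, expressed most of these genes without any added interferon. In Ctrl cells 33 of the 39 members were at or above 1 TPM in the MLL1 experiment and 31 in the AF9 experiment, with medians of 12.3 and 13.4 TPM. The highest in both was IFITM2, at 806 and 447 TPM, and IFI16 was at 192 and 92.5 TPM. IFITM2 belongs to a family of small membrane proteins that hinder the entry of viruses, and IFI16 is a nuclear DNA sensor. IFITM1 (173 and 191 TPM) and ADAR (168 and 136 TPM), the enzyme that edits adenosine to inosine in double-stranded RNA, were of the same order. At the other end were 4 genes that interferon raises strongly in many cells. IFI27 had at most 3 counts in every library, OAS2 at most 4, OASL at most 3, and IFI44L 1 count in each library of the AF9 experiment. ISG15 lay between these ends at 35.3 and 15.4 TPM. XAF1 was at 7.71 TPM in the MLL1 experiment and 0.829 TPM in the AF9 experiment. The experiments were counted in separate tables, so no test was made of levels between them.

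**Figure D1:**
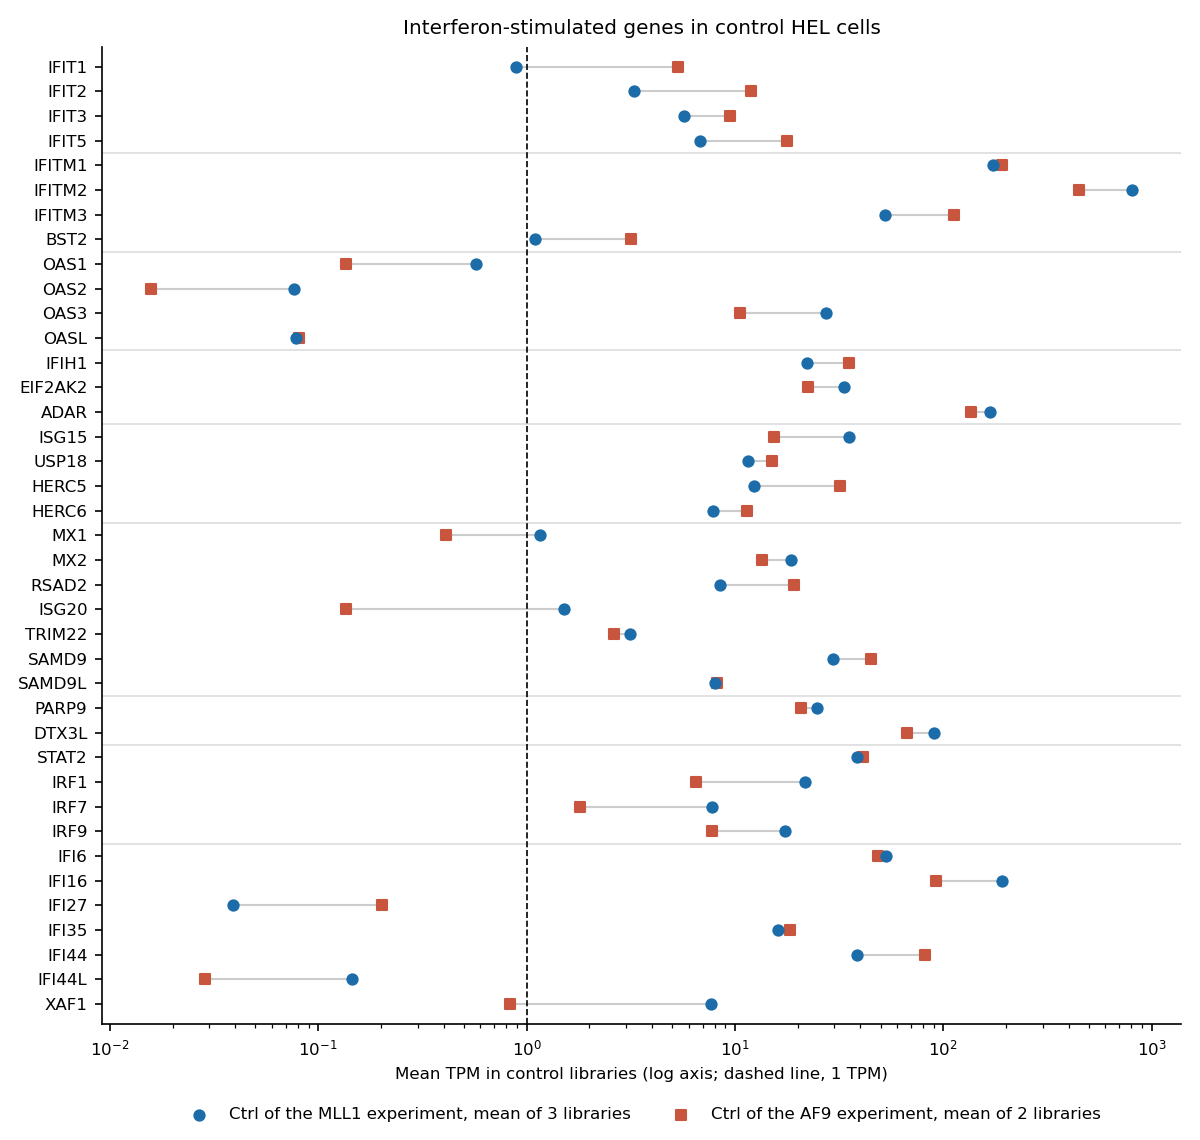
Mean TPM of each of the 39 genes in the Ctrl libraries of the MLL1 experiment (circles, n = 3) and of the AF9 experiment (squares, n = 2), on a log axis and grouped by role. Values run from 0.0158 TPM for OAS2 to 806 TPM for IFITM2, and the dashed line marks 1 TPM.

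In MLL1 KD no member was called without the block, and IFI16 and OAS1 rose when the replicate number was included as a block. Of the 39 members 34 were tested, 0 were called higher and 0 lower, against 0.0695% of the 14394 genes tested (0.0347% higher and 0.0347% lower). In the same edgeR test 3 members had an unadjusted p under 0.05 (9.98% of all genes), and DESeq2 on the same genes called 1 member, OAS1, which was higher (1.61% of all genes called, 0.785% higher and 0.827% lower). The block was used because replicate 1 of Ctrl and of KD deviated together from the means of their groups (correlation 0.648). Replicates 2 and 3 correlated as highly across numbers (0.369 and 0.359) as within them (0.326 and 0.352). With the block, 2 members were called higher and 0 lower. Over all genes the block called 4.75%, 2.22% higher and 2.53% lower. OAS1, called here and in DESeq2, reached the filter through its KD libraries (0.574 TPM in Ctrl and 1.84 TPM in KD). Its place in these counts therefore already required a difference. The median log2 fold change over the members tested was -0.02 without the block and -0.01 with it, beside 0.01 and 0.00 over all genes. The 95% interval excluded a 2-fold rise for 26 of the 34 members (77.3% of all genes), and for 30 with the block. Bulk RNA cannot tell fewer cells of a kind from less RNA per cell, for these or any later values.

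**Figure D2:**
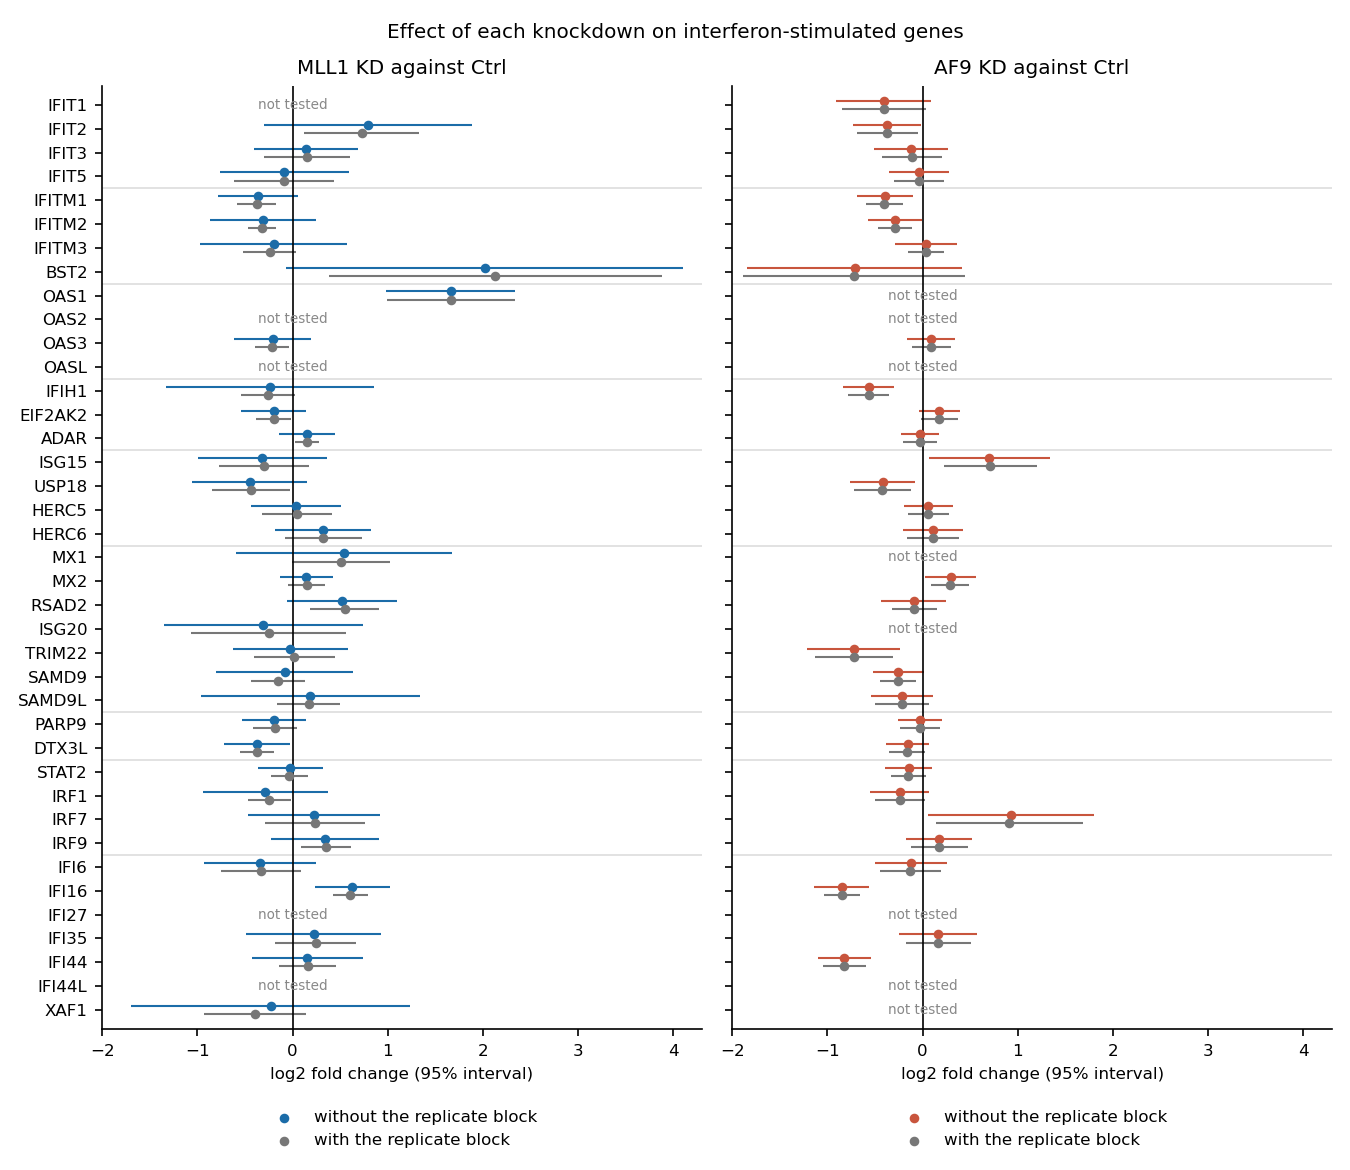
Log2 fold change of each gene in MLL1 KD (left) and AF9 KD (right) against its own Ctrl, without the replicate block (coloured) and with it (grey). Points are estimates and lines are 95% intervals from edgeR, and genes below the filter are marked as not tested. In MLL1 KD the intervals are wide without the block, and with it IFI16 and OAS1 are the members called. In AF9 KD IFI16, IFI44 and TRIM22 are the members called lower without the block.

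IFI16 (chr1:158999968-159055155, plus strand, hg38) had 255, 275 and 261 CPM in the Ctrl libraries of the MLL1 experiment and 306, 452 and 465 CPM in MLL1 KD. All 3 KD libraries lay above all 3 Ctrl libraries, and KD replicate 1 was the lowest of the 3. The means were 264 ± 10.4 and 408 ± 88.5 CPM (SD, n = 3 each). The change was 1.55-fold (95% interval 1.18 to 2.03, log2 0.63, SE 0.17, edgeR adjusted p = 0.264). With the block it was 1.52-fold (1.34 to 1.73, edgeR adjusted p = 0.000109), and it was also called without the block when KD replicate 1 was left out, so the call depends on how replicate 1 is treated.

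OAS1 (chr12:112905856-112933219, plus strand) encodes an enzyme that makes oligoadenylates on contact with double-stranded RNA. It had 14, 17 and 13 counts in the Ctrl libraries and 71, 39 and 54 counts in MLL1 KD, or 1.80, 2.36 and 1.65 CPM against 7.06, 5.52 and 5.82 CPM. The groups did not overlap, and the lowest KD library was above 2 times the highest Ctrl library. The change was 3.16-fold (95% interval 1.97 to 5.07, edgeR adjusted p = 0.126, and 0.00168 with the block). OAS1 reached the filter through its KD libraries, with 0.574 TPM in Ctrl and 1.84 TPM in MLL1 KD, so its place among the genes tested already required a difference, and without the filter its adjusted p was 0.119. In the AF9 experiment it had 8 and 3 counts in Ctrl and 13 and 7 in KD, and was not tested. Of its family, OAS3 did not pass, at -0.21 log2 (95% interval -0.61 to 0.19), and OAS2 and OASL were too low to test.

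Other members stood apart by library without passing. BST2 (tetherin, which holds budding virus at the cell surface) had 6, 1 and 0 counts in Ctrl and 16, 10 and 8 in MLL1 KD, a log2 change of 2.02 with an interval from -0.06 to 4.11. RSAD2 (viperin, an antiviral radical enzyme) had 8.51, 13.6 and 15.5 CPM in Ctrl and 15.9, 19.1 and 19 in MLL1 KD, and with the block its edgeR adjusted p was 0.0426 at 1.46-fold, under the fold threshold. IFI44L, below the filter, had 5, 2 and 3 counts in Ctrl and 10, 9 and 16 in MLL1 KD. Together with OAS1 and IFI16, BST2 and RSAD2 made 4 of the 34 tested members with every KD library above every Ctrl library, against 8.64% of all genes tested. Of these, OAS1 reached the filter through its KD libraries. DTX3L, an E3 ligase that partners PARP9, was the 1 member with every KD library below (9.06% of all genes), at 118, 150 and 139 CPM against 89.4, 110 and 115 CPM.

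The IFIT family, whose proteins bind foreign RNA, gave no call in MLL1 KD. IFIT2 had 20, 31 and 33 counts in Ctrl and 28, 69 and 64 in KD, and its groups overlapped through KD replicate 1. IFIT3 and IFIT5 were at 0.14 and -0.09 log2, and IFIT1, below the filter, had 12, 9 and 3 counts in Ctrl and 3, 3 and 5 in KD. The IFITM genes were all below 0, between -0.37 and -0.20 log2. With the block IFITM1 and IFITM2 had adjusted p values of 0.015 and 0.00454 in edgeR, at 1.30-fold and 1.25-fold lower, under the fold threshold. IFITM1, IFITM2 and IFITM3 share stretches of sequence with each other or with an overlapping gene, so their counts are uncertain.

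The sensors and editors of double-stranded RNA were not called in MLL1 KD. IFIH1 (MDA5, a sensor of long double-stranded RNA) had 15.2, 36.4 and 39 CPM in Ctrl and 11.4, 32.0 and 33.8 CPM in KD. In both groups replicate 1 was the low library, and the difference between replicates was larger than that between groups. EIF2AK2 (PKR, a kinase that halts translation on contact with double-stranded RNA) had 107, 95 and 84.8 CPM in Ctrl and 95.2, 78.8 and 75.7 in KD, a log2 change of -0.20 (-0.54 to 0.14). ADAR had 586, 514 and 490 CPM in Ctrl and 665, 551 and 548 in KD, a log2 change of 0.15 (-0.14 to 0.44). The intervals of EIF2AK2 and ADAR reached neither a 2-fold rise nor a 2-fold fall.

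The STAT and IRF regulators overlapped between Ctrl and MLL1 KD. STAT2, a subunit of ISGF3, had 88.3, 96.2 and 94.6 CPM in Ctrl and 75.6, 94.8 and 104 in KD, and its log2 change of -0.02 had an interval from -0.36 to 0.32. IRF9, the DNA-binding subunit of ISGF3, had 21.4, 30.0 and 36.6 CPM in Ctrl and 28.4, 39.8 and 43.5 in KD, with an edgeR adjusted p of 0.73 and, with the block, 0.069. Nearly the whole of the IRF9 transcript (92.9%) is shared with an overlapping gene model, so its counts are uncertain. IRF1, which maintains basal expression of many targets, had 42.2, 79.1 and 87.2 CPM in Ctrl and 44, 61.6 and 65.6 in KD. IRF7, which amplifies the interferon response, had 4.13, 6.66 and 5.08 CPM in Ctrl and 4.57, 6.93 and 7.11 in KD. Replicate 1 was the lowest library of both groups for IRF1, IRF7 and IRF9.

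ISG15, the ubiquitin-like modifier, had 6.19, 10.6 and 7.12 CPM in Ctrl and 5.86, 8.07 and 5.28 in MLL1 KD, a log2 change of -0.32 (-1.0 to 0.36). USP18, which removes ISG15 and shares 62.3% of its transcript with other genes, so that its counts are uncertain, was at -0.45 log2, and the ISG15 ligases HERC5 and HERC6 were at 0.04 and 0.32. None of these 4 was called. The antiviral GTPases MX1 and MX2 were at 0.54 and 0.15 log2, and the remaining effectors, ISG20, TRIM22, SAMD9 and SAMD9L, lay between -0.31 and 0.19.

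**Figure D3:**
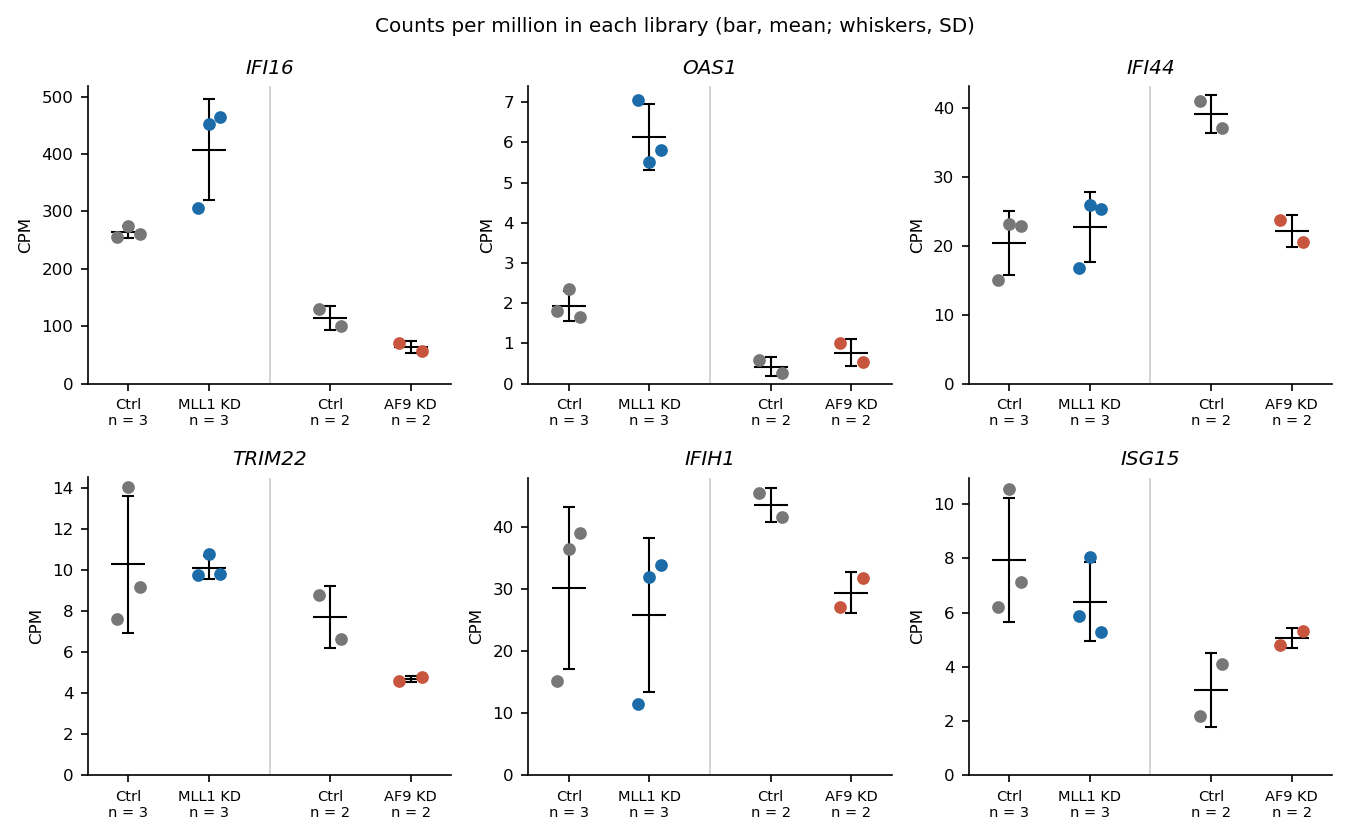
CPM in each library for 6 interferon-stimulated genes, with MLL1 KD (blue) and AF9 KD (red) beside the Ctrl libraries of the same experiment (grey). Points are libraries, bars are means and whiskers are SD (n = 3 or 2). IFI16 lies higher in MLL1 KD and lower in AF9 KD, OAS1 lies higher in MLL1 KD, and IFI44 and TRIM22 lie lower in AF9 KD.

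Replicate 1 of the MLL1 experiment stood apart for part of the members in both groups. Of the 34 members tested, 4 (11.8%) were more than 2-fold below the mean of replicates 2 and 3 in Ctrl and again in KD, against 2.61% of all genes tested. They were IFIH1, MX1, XAF1 and SAMD9L, which encode the RNA sensor, an antiviral GTPase, a pro-apoptotic factor and a translation inhibitor. For SAMD9L the log2 ratio of replicate 1 to the others was -1.35 in Ctrl and -1.52 in KD, and for XAF1 -1.04 and -2.40. IFI16 and OAS1 did not share this pattern in Ctrl, at -0.07 and -0.12. The source of the difference was not tested. With replicates 2 and 3 alone, 4 members were called higher, IFI16, IFIT2, OAS1 and BST2, and 0 lower (4.84% of all genes called, 2.51% higher and 2.33% lower). IFI16 was at 0.78 log2. Of these members, OAS1 reached the filter through its KD libraries. The filter used all libraries of the experiment, and in replicates 2 and 3 BST2 had 1 and 0 counts in Ctrl and 10 and 8 in KD. The places of OAS1 and BST2 in this count therefore rest on their KD libraries.

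**Figure D4:**
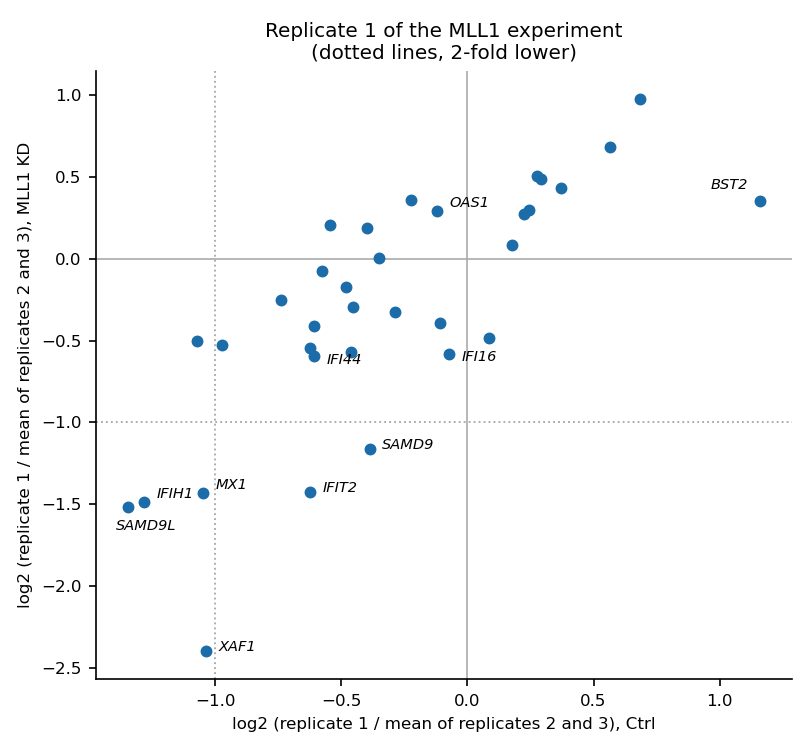
Log2 ratio of replicate 1 to the mean of replicates 2 and 3 in Ctrl (horizontal) and MLL1 KD (vertical) for the 34 genes tested, each a point. The dotted lines mark 2-fold lower, and IFIH1, MX1, SAMD9L and XAF1 lie beyond both.

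In AF9 KD IFI16, IFI44 and TRIM22 fell, and no member was called higher without the replicate block, whereas ISG15 and IRF7 were with it. Of the 39 members 31 were tested, and 0 were called higher and 3 lower, against 8.02% and 5.06% of the 13333 genes tested (13.1% in all). Without the fold threshold 0 were higher and 5 lower (14.4% and 14.6% of all genes, 29% in all), and 11 members had an unadjusted p under 0.05 (40.6% of all genes). With the block 2 were higher and 3 lower (9.15% and 5.54% of all genes, 14.7% in all). The median log2 fold change over the members tested was -0.12, beside 0.01 over all genes. The 95% interval excluded a 2-fold rise for 29 of the 31 members (83.7% of all genes), all but ISG15 and IRF7. By library, 6 of the 31 members tested had both KD libraries above both Ctrl libraries (32.8% of all genes) and 13 had both below (33.2%).

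IFI16 had 130 and 100 CPM in Ctrl and 71.1 and 56.4 CPM in AF9 KD. Both KD libraries lay below both Ctrl libraries, with means of 115 ± 20.9 and 63.8 ± 10.4 CPM (SD, n = 2 each). The level was 1.80-fold lower (log2 -0.85, SE 0.13, 95% interval -1.14 to -0.56, edgeR adjusted p = 0.00055). IFI44 (chr1:78649796-78664078, plus strand), a cytoplasmic protein that interferon induces, had 41.0 and 37.1 CPM in Ctrl and 23.7 and 20.5 in AF9 KD. The groups did not overlap, and the level was 1.77-fold lower (log2 -0.82, SE 0.13, 95% interval -1.10 to -0.54, edgeR adjusted p = 0.000568). In the MLL1 experiment IFI44 overlapped between groups, at 15.0, 23.2 and 22.9 CPM in Ctrl and 16.8, 25.9 and 25.3 in KD.

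TRIM22 (chr11:5689610-5737089, plus strand), an E3 ligase that restricts retroviruses, had 8.78 and 6.63 CPM in Ctrl and 4.56 and 4.79 in AF9 KD. It was 1.65-fold lower (log2 -0.73, SE 0.23, 95% interval -1.21 to -0.24, edgeR adjusted p = 0.0271). This call was the least stable of the 3. It was lost in DESeq2 (adjusted p = 0.105), with total counts in place of TMM factors (edgeR adjusted p = 0.0552) and with GC offsets (edgeR adjusted p = 0.0896), and without Ctrl replicate 1 (edgeR adjusted p = 0.374). In the MLL1 experiment TRIM22 had 7.61, 14 and 9.15 CPM in Ctrl and 9.74, 10.8 and 9.81 in KD.

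Of the sensors, IFIH1 had 45.4 and 41.6 CPM in Ctrl and 27.1 and 31.8 in AF9 KD, and was 1.48-fold lower, just under the fold threshold (edgeR adjusted p = 0.00446). EIF2AK2 lay in the other direction, at 58.3 and 57.9 CPM against 66.7 and 64.5 CPM, a log2 change of 0.18 (-0.04 to 0.39). ADAR had 396 and 388 CPM against 387 and 384, a log2 change of -0.03 (-0.22 to 0.17) that became 0.06 with total counts and 0.02 with GC offsets. The groups did not overlap for any of these 3 genes, and only IFIH1 had an adjusted p under 0.05. With 2 libraries per group such separation was common, with KD above in 32.8% of all genes and below in 33.2%.

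ISG15 had 2.18 and 4.11 CPM in Ctrl and 4.79 and 5.31 in AF9 KD. IRF7 had 0.798 and 1.43 CPM in Ctrl and 1.70 and 2.47 in AF9 KD. Both KD libraries lay above both Ctrl libraries for either gene, yet neither was called without the block, with log2 changes of 0.70 (0.07 to 1.34, edgeR adjusted p = 0.0907) and 0.93 (0.05 to 1.80, edgeR adjusted p = 0.103). With the replicate block both were called (edgeR adjusted p = 0.0139 and 0.0494). With 2 libraries per group, whether the numbers pair the AF9 libraries cannot be settled. STAT2 had 96.7 and 84.1 CPM in Ctrl and 73.8 and 89.6 in KD, and overlapped. IRF1, with 20.0 and 17.4 CPM against 15.5 and 16.1, and IRF9, with 12.3 and 11.2 CPM against 12.6 and 14, moved by -0.24 and 0.18 log2 and did not pass.

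The 4 IFIT genes were all below 0 in AF9 KD, between -0.41 and -0.04 log2, although IFIT5 was at 0.05 with total counts and 0.21 with GC offsets and IFIT3 at 0.06 with GC offsets, and none was called. IFIT1 was high enough to test here, at 6.39 and 5.20 CPM in Ctrl and 4.56 and 4.19 in KD. IFITM1 was 1.31-fold lower (edgeR adjusted p = 0.0458), under the fold threshold, and IFITM2 and IFITM3 were at -0.29 and 0.04 log2. BST2 had 11 and 10 counts in Ctrl and 6 and 7 in AF9 KD, a log2 change of -0.72 (-1.85 to 0.42), and of -0.95 with GC offsets. Of the effectors, MX2 was at 0.29 and RSAD2 at -0.10 log2 (0.06 with GC offsets), and SAMD9 and SAMD9L were at -0.25 and -0.22. PARP9 and DTX3L were at -0.03 and -0.16 (0.16 and 0.01 with GC offsets) and did not pass. The 8 members below the filter in the AF9 experiment were OAS1, OAS2, OASL, MX1, ISG20, IFI27, IFI44L and XAF1.

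GC content moved with the AF9 comparison. Genes were divided into 5 equal bins of GC content. Over all genes, the bin with the lowest GC content had a median log2 fold change of -0.18 and 9.82% of its genes called lower, while the bin with the highest had a median of 0.44 and 27.7% called higher. The 3 members that fell were in the lowest bin, with 39.8% GC for IFI16, 38.2% for IFI44 and 40.2% for TRIM22, where genes within 2 percentage points had medians of -0.16, -0.18 and -0.16. ISG15 and IRF7, the members with the largest estimates above 0, had 63.4% and 67.2% GC, where the medians were 0.57 and 0.81. With an offset for each library's trend with GC content, IFI16 was still called lower (log2 -0.62, edgeR adjusted p = 0.000694). IFI44 was at -0.56 log2 (edgeR adjusted p = 0.0015), under the fold threshold, and ISG15 and IRF7 were at 0.14 and 0.10. IFITM1, at 58.1% GC, was called lower with the offsets, at -0.65 log2 (edgeR adjusted p = 0.000419). With the offsets 2 members were called lower and 0 higher, against 3.71% and 4.5% of all genes (8.21% in all), and the members' median was 0.01 beside 0.05 over all genes. Whether GC content and AF9 KD act on the counts separately was not tested.

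**Figure D5:**
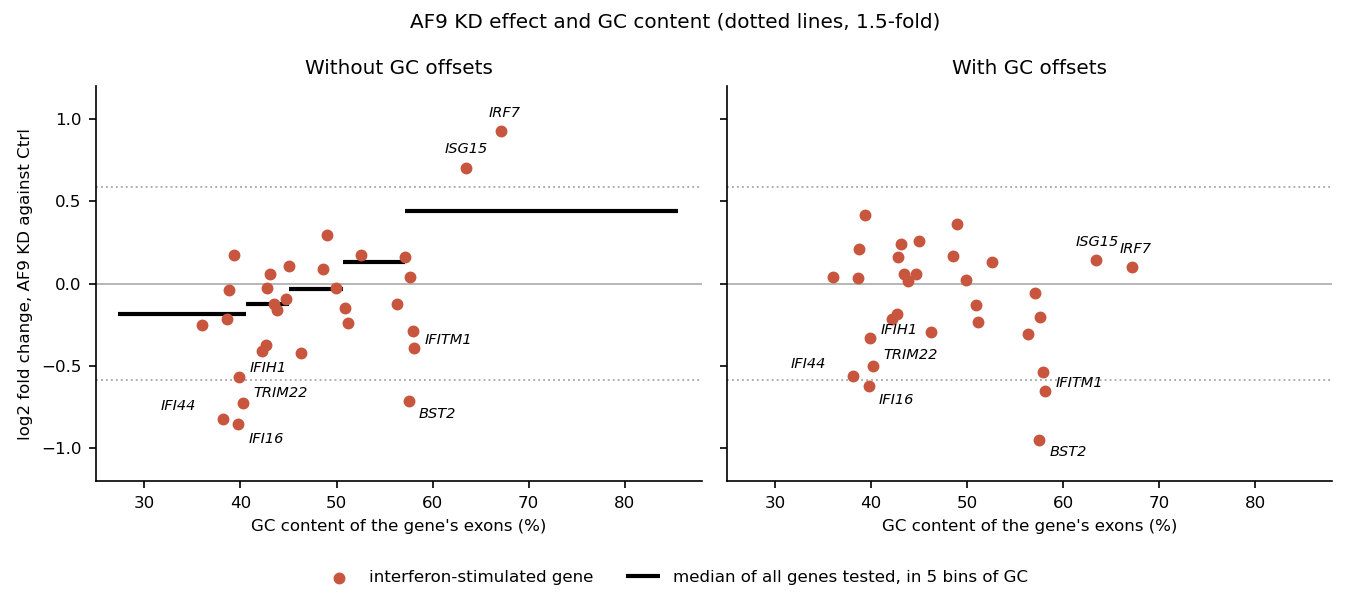
Log2 fold change in AF9 KD against the GC content of each gene's exons (percent), without (left) and with (right) offsets for GC content. Red points are the 31 interferon-stimulated genes tested, and black bars in the left panel are medians of all genes tested in 5 bins of GC content, from -0.18 in the lowest to 0.44 in the highest. ISG15 and IRF7 lie above 1.5-fold on the left only, and IFI16 lies below it on both sides.

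The effects of the 2 KDs were then compared in a single fit, for the 30 members tested in both experiments. IFI16 was the only one with a difference, its log2 fold change being 1.496 higher in MLL1 KD than in AF9 KD (SE 0.28, 95% interval 0.88 to 2.12, edgeR adjusted p = 0.0409), against 0.746% of the 12731 genes tested with a higher effect in MLL1 KD (0.534% lower, 1.28% in all). In MLL1 KD it was above every Ctrl library in 3 of 3 libraries, as were 8.64% of the genes tested there. In AF9 KD it was below every Ctrl library in 2 of 2, as were 33.2%. With the block its adjusted p was 6.5e-06, and without the block it was 0.0526 with total counts and 0.0589 with GC offsets, so the call was lost there (0.298% of all genes called with GC offsets, 0.173% higher and 0.126% lower). It was also lost when any library other than KD replicate 1 of the MLL1 experiment was left out, with adjusted p values up to 0.265. IFI44 was 0.99 higher (0.24 to 1.74), and with the block it was called in edgeR (adjusted p = 0.000729), as were IFIT2 (adjusted p = 0.0182) and RSAD2 (adjusted p = 0.0365), against 12.3% of all genes (12% lower, 24.4% in all). BST2 had the largest estimate, 2.76 (0.39 to 5.13, edgeR adjusted p = 0.219), at few counts. Members with no call had wide intervals, for example -2.06 to 0.08 for ISG15 and -1.84 to 0.50 for IRF7.

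Upstream of these genes, the 6 interferon genes examined were at or near 0, and the IFNA genes were not analysed here. IFNB1, IFNE, IFNK, IFNW1 and IFNG had 0 counts in all 10 libraries, which allows up to 0.211 to 0.431 CPM per library at 3 counts, and IFNL1 had 0 to 5. The receptor genes IFNAR1, IFNAR2, IFNGR1 and IFNGR2 were at 23.3 to 74.9 TPM (group means), while IFNLR1, the receptor of type III interferons, had 0 counts throughout. Of 34 genes of interferon signalling and sensing, 25 were tested in MLL1 KD and 0 were called. With the block TMEM173 (STING1, which relays signals from cytosolic DNA) and SOCS3 (a feedback inhibitor of JAK kinases) fell, by 0.68 and 0.70 on the log2 scale (edgeR adjusted p = 0.00236 and 0.00285). The block called 4.75% of all genes, 2.22% higher and 2.53% lower. In AF9 KD 24 were tested, IRF3 and IKBKE, a transcription factor and a kinase that turn on interferon genes, rose by 0.73 and 0.88 log2, and IFNGR1 fell by 0.61 (edgeR adjusted p = 0.000395, 0.00669 and 0.00132). These 3 of 24 were close to the share of all genes called (13.1%). Over the alternative fits IRF3 ran from 0.41 to 0.83 log2, IKBKE from 0.62 to 1.12 and IFNGR1 from -0.70 to -0.42.

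In a list of 53 other interferon-stimulated genes, EPSTI1 fell in AF9 KD. In MLL1 KD 46 were tested with 0 called, at a median of -0.05 log2. With the block EPSTI1 and GBP1 rose (0.79 and 0.87 log2, edgeR adjusted p = 0.00196 and 0.0473) and APOBEC3G fell by 0.91 (edgeR adjusted p = 0.00014). These calls stand beside 2.22% of all genes called higher and 2.53% lower with the block. In AF9 KD 43 were tested at a median of -0.19 log2, with 3 called higher and 5 lower, beside 8.02% and 5.06% of all genes. Among the lower ones were EPSTI1, at 32.5 and 33.1 CPM in Ctrl and 13.2 and 13.8 in KD (edgeR adjusted p = 3.61e-05), and the guanylate-binding proteins GBP3 and GBP4, at -1.15 and -0.63 log2. The higher ones were LGALS3BP, at 0.363 and 0.587 CPM in Ctrl and 3.87 and 4.64 in KD (edgeR adjusted p = 0.000125), which reached the filter through its KD libraries (0.59 TPM in Ctrl and 5.71 TPM in KD), and PARP10 and SAMHD1, at 0.91 and 0.61 log2. Over the alternative fits in AF9 KD, PARP10 ran from 0.26 to 1.34 log2, SAMHD1 from 0.56 to 0.81 and GBP4 from -0.72 to -0.42. Like IFI16, EPSTI1 had a higher effect in MLL1 KD than in AF9 KD, by 2.08 log2 (edgeR adjusted p = 0.0185).

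Targets of NF-kB, the other arm downstream of RNA and DNA sensors, gave 0 calls in MLL1 KD without the block. Of 22 listed, 14 were tested, and with the block ICAM1, NFKBIA and CD83 fell, by 1.04, 0.65 and 0.92 on the log2 scale (edgeR adjusted p = 1.68e-05, 0.000176 and 0.00318), beside 4.75% of all genes called. In AF9 KD 13 were tested, and ICAM1 rose by 1.06 log2 (edgeR adjusted p = 0.00038). BIRC3 and TNFAIP3 fell by 1.04 and 0.63 (edgeR adjusted p = 0.0183 and 0.0481), beside 13.1% of all genes called. Over the alternative fits TNFAIP3 ran from -0.95 to -0.38 log2, on either side of the fold threshold, and BIRC3 from -1.11 to -0.75. For ICAM1, an adhesion molecule, the effect in MLL1 KD was lower than that in AF9 KD, by -2.05 log2 (edgeR adjusted p = 0.0309, and 0.0589 with GC offsets).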

How the data were processed

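RNA-seq gene counts of HEL cells (3 Ctrl and 3 MLL1 KD libraries; 2 Ctrl and 2 AF9 KD libraries) were used as deposited. Per the labels and the study's methods, the authors made the counts from strand-specific reads trimmed with fastp 0.13.1, aligned to hg38 with HISAT2 2.1.0 and counted per gene with featureCounts 1.6.1 (annotation not given in the sources used here). Of 28103 symbols, 92.239% were matched to GENCODE 44 for length, GC content and position. Fits were made for genes reaching 1 TPM on average over an experiment, in edgeR 4.0.16 (quasi-likelihood, TMM factors, Benjamini-Hochberg adjustment over all genes tested) in R 4.3.3, separately per experiment, and in 1 fit with its own Ctrl per KD for the difference of effects. DESeq2 1.42.0, a replicate block, GC and length offsets, other filters and leaving out each library were alternatives. The newer edgeR quasi-likelihood method and DESeq2 with the block were chosen after seeing the data. For MLL1, same-numbered Ctrl and KD libraries had correlated deviations from the means of their groups, at 0.648, 0.326 and 0.352, so the block was used. Replicates 2 and 3 correlated as highly across numbers (0.369 and 0.359), so the check sets apart replicate 1 only. Intervals are 95% and cover the spread between libraries. The limit of 3 counts covers counting error only. The fits were tested on simulated data. The members and lists were chosen with earlier results of these data known. Genes named with values were those called in either comparison with or without the block, STAT2, IRF1, IRF7 and IRF9, IFIH1, EIF2AK2 and ADAR, and those with a difference. Further members were singled out after their values were seen. Some genes of the other lists are not reported here.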

Additional observations from a re-analysis of the deposited data

Results flagged for a closer look

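Each of these genes had log2 fold changes that differed between MLL1 KD and AF9 KD in the test of the difference itself (edgeR, adjusted over 12731 genes). IFI16 had an effect 1.4962 higher in MLL1 KD (adjusted p = 0.0409). Every KD library lay above Ctrl in MLL1 KD (8.64% of all genes tested) and below Ctrl in AF9 KD (33.2%). EPSTI1 had an effect 2.0792 higher in MLL1 KD (adjusted p = 0.0185). ICAM1, at -2.0451 (adjusted p = 0.0309), and LGALS3BP, at -2.8641 (adjusted p = 0.0298), had the lower effect in MLL1 KD. LGALS3BP reached the filter in the AF9 experiment through its KD libraries. With GC offsets the calls of IFI16, ICAM1 and LGALS3BP were lost (adjusted p = 0.0589, 0.0589 and 0.058). Each of the 4 calls was lost when any 1 library of the AF9 experiment was left out, with adjusted p values up to 0.265 for IFI16, 0.168 for EPSTI1, 0.257 for ICAM1 and 0.257 for LGALS3BP.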

How the results depend on the processing

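In MLL1 KD the count of members called, 0 without the block, was 1 with DESeq2 in either order of filtering, 2 with the replicate block, with GC offsets and the block, with replicate 1 as a batch term and in DESeq2 with the block, and 4 with replicates 2 and 3 alone. All of these were higher, and OAS1, which is among them, reached the filter through its KD libraries. BST2, called with replicates 2 and 3 alone, had 1 and 0 counts in Ctrl replicates 2 and 3. Of all genes, 0.0695% were called without the block and 1.61% with DESeq2 on the same genes. The shares were 4.75% with the block and 4.84% with replicates 2 and 3 alone. Leaving out a library gave 0 to 1 members called (IFI16 without KD replicate 1), and moved the median of -0.023 to between -0.0911 and 0.109. In AF9 KD the 3 calls (13.1% of all genes called), all lower, became 5 with no fold threshold (29%) and 0 at 2-fold. The replicate block gave 5 (14.7%), of which 2 were higher (ISG15 and IRF7), and no filter gave 1 higher. Leaving out a library gave 2 to 5 calls, 0 to 1 of them higher and 2 to 5 lower, on the assumption that the lone library varies like the others. AF9 libraries of the same number correlated at 0.156, which with 2 libraries per group is 1 value and cannot settle whether the numbers pair the libraries. The median of -0.123 became -0.0331 with total counts, 0.0134 with GC offsets and -0.171 to -0.11 without a library. The difference, 1 member, was 0 with total counts and with GC offsets, 4 with the block, 4 with GC offsets and the block (3 higher, 1 lower), 5 without replicate 1 of both groups of the MLL1 experiment (4 higher, 1 lower), and 0 to 3 without a library (3 without MLL1 KD replicate 1). For the difference, 1.28% of all genes were called, 24.4% with the block and 0.298% with GC offsets. Where no share is given, the member counts were not set beside all genes. Signs turned only for genes not called in that comparison. In MLL1 KD TRIM22 was at 0.0174 with the block, 0.026 in DESeq2 with the block and -0.196 to 0.268 without a library, STAT2 at 0.0632 with replicates 2 and 3 alone and -0.128 to 0.0991 without a library. Without a library IFI44 ran from -0.0251 (without Ctrl replicate 1) to 0.336 and IFIH1 from -0.555 to 0.128 (without KD replicate 1). In AF9 KD ADAR was at 0.0635 with total counts, 0.0189 with GC offsets and 0.028 with length offsets, and RSAD2 at 0.0565 with GC offsets, 0.0634 with GC offsets and the block and -0.275 to 0.119 without a library. The causes were not tested. Depth limited members with few counts per library, such as BST2, OAS2 and IFI27.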
